A study of Homo sapiens with 6 samples.

Results

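Heat shock proteins and chaperonins were examined in K562 cells expressing wild-type C/EBPα, its p30 isoform or neither. The members were chosen by symbol alone, as the rows named HSPA, HSPB or DNAJA, DNAJB or DNAJC with a number, HSP90AA1, HSP90AB1, HSP90B1, HSPD1, HSPE1, HSPH1, CCT2 to CCT8 and TCP1. This gave 67 rows with 66 symbols, of 16938 rows in the table of CEBPA and CTR, 16843 in that of CEBPA and P30 and 14956 in that of P30 and CTR. All 67 rows were in all 3 tables, and 62 of them exceeded 1 FPKM in at least 1 group. The other 5 (HSPA12B, HSPB3, HSPB6, HSPB9 and DNAJC22) were at or under 1 FPKM in all 3 groups. HSPA1A, HSPA1B, HSPA1L, HSPA2, HSPB8 and TCP1 were not analysed here.

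Chaperones help other proteins to fold. HSP70 binds short unfolded stretches and releases them as it hydrolyses ATP, a cycle that J proteins (DNAJ) start by delivering clients and that HSP110 proteins advance by exchanging the nucleotide. HSP90 matures kinases and steroid receptors, the cytosolic ring TRiC (subunits CCT) folds actin and tubulin inside its chamber, HSPD1 and HSPE1 form the equivalent chamber of mitochondria, and small heat shock proteins hold damaged proteins in solution. Heat shock factors switch on part of the family after stress, while many members are made in all growing cells. In maturing erythroid cells, HSP70 is known to guard the factor GATA1 from cleavage.

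K562 is an established human leukemia line with erythroid features, in which neither C/EBPα isoform is found without a transgene. The CEBPA line carries wild-type C/EBPα and the P30 line the p30 isoform, each under a doxycycline-inducible promoter on a PiggyBac transposon, and the CTR line carries the empty vector. The paper states that CEBPA mRNA can give full-length C/EBPα and p30, and its blot legend names both for the CEBPA line. CEBPA cells may therefore hold p30 as well. All 6 samples, 2 biological replicates of each line, received 200 ng/ml doxycycline for 48 h, so that no sample was without the drug. Each gene has 1 deposited value per group, in FPKM (fragments normalized to transcript size and to all mapped fragments), which pools both replicates. There is therefore no SD, no test and no replicate check for any value below. The study's methods give read pairs as a range over samples, and the fragments behind each FPKM are not known from the files. The CEBPA gene was not analysed here, so the transgene could not be checked in these values.

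Granulocyte markers (S100A8, S100A9, S100A12, CSF3R and LTF, 5 of 7 listed) added up to 4.18 FPKM in CTR cells, 10025 in CEBPA cells and 27.6 in P30 cells. Erythroid markers of K562 (HBG1, GATA1, KLF1 and TFRC, 4 of 6 listed) added up to 1349.9, 619 and 864 FPKM. The lymphocyte markers CD3D and CD3E (2 of 4 listed) summed to 7.42, 2.66 and 6.89 FPKM, and COL1A1, COL1A2, EPCAM and KRT8 for stroma and epithelium (4 of 6 listed) to 242, 118 and 256 FPKM, nearly all of it KRT8 and EPCAM. No marker with a row was listed at 0. Of the erythroid markers, HBG1 was at 872, 389 and 410 FPKM, low in P30 too, and TFRC was nearly level at 133, 134 and 145 FPKM. The groups thus differed in these markers, most widely in the granulocyte sum of CEBPA, and the part of this in the chaperone values was not tested. In such bulk samples, fewer cells of a type and less RNA per cell cannot be told apart.

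Promoter sequences are shown for 6 members, to set the letters that stress factors are known to bind beside the levels of HSPA6, HSP90AA1 and HSP90AB1 (heat shock) and of HSPA5, HSP90B1 and DNAJB9 (endoplasmic reticulum, ER). Each is the stretch of 250 bases before a RefSeq transcript start, taken from RefSeq (table built on GRCh38.p14) and placed on GRCh37 by its only exact match, and reads 5′ to 3′ on the strand of the gene. Capitals mark the heat shock element (GAA, TTC and GAA in this order, with NN between each) in the first 3 and the ER stress element (CCAAT and CCACG with NNNNNNNNN between them) in the next 2, on either strand, and the last holds no match to the ER stress element.
HSPA6, chr1:161494080-161494329, + strand: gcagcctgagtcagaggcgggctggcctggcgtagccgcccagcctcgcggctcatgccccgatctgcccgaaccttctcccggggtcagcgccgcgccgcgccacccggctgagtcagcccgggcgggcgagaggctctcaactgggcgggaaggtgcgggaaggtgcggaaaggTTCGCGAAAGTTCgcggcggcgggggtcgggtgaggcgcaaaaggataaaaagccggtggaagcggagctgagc
HSP90AA1, chr14:102553382-102553631, − strand: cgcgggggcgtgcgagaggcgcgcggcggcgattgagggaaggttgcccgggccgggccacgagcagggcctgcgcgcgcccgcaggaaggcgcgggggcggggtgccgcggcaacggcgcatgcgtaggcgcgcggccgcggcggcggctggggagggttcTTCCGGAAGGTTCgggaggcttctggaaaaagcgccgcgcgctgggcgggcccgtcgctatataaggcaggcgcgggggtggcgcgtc
HSP90AB1, chr6:44215430-44215679, + strand: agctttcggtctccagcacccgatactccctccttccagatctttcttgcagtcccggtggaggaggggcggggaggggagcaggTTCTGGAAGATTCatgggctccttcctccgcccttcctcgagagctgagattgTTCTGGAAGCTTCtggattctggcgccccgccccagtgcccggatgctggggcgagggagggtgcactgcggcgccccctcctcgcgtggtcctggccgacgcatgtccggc
HSPA5, chr9:128003623-128003872, − strand: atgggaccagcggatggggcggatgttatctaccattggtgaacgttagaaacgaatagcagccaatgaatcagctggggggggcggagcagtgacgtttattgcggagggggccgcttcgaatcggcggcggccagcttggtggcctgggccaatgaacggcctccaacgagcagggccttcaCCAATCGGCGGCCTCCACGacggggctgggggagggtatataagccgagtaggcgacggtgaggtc
HSP90B1, chr12:104323938-104324187, + strand: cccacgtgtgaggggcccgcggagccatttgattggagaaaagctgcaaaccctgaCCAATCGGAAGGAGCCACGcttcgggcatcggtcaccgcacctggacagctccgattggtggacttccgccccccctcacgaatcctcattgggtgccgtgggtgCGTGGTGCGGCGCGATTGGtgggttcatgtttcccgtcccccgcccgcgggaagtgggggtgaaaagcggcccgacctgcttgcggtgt
DNAJB9, chr7:108210068-108210317, + strand: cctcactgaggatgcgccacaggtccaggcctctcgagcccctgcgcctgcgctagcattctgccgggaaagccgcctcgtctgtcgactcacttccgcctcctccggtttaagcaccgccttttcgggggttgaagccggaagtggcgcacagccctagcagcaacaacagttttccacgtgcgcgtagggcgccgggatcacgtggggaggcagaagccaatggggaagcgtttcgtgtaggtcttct

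Of the 66 symbols, 59 had a promoter in the table, with 78 starts in all. The heat shock element was in 6 of these 78 (7.69%), in DNAJB6, HSP90AA1, HSP90AB1, HSPA6, HSPA8 and HSPD1, against 0.442% of all 35093 promoters of this length. The ER stress element was in HSPA5 and HSP90B1 alone, 2.56% of the members' promoters against 0.0741% of all. HSP90AA1 and HSP90AB1 have other RefSeq starts without the element, and for both genes the window shown lies downstream of the first start. The C/EBP letters TTNCNNAA, an incomplete form of the C/EBP site, were in 20.5% of the members' promoters and 33.2% of all, and some of these matches share bases with a heat shock element. Among members at least 1.5-fold apart between CEBPA and CTR, these letters were in DNAJB4 and DNAJC19, higher in CEBPA, and HSPB1 and DNAJC12, lower. The other such members, HSPA6 and DNAJB9 among them, had no match, and some of them may have had no window. A match describes these letters in this window and is no measure of binding.

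As a family, the members were abundant, and their summed FPKM was similar in the 3 groups, while their share of all FPKM was largest in CEBPA. They added up to 7323 FPKM in CTR cells, 7766 in CEBPA cells and 7291 in P30 cells, which is 1.11%, 1.27% and 1.09% of the FPKM of all rows. The median member was at 35.4 FPKM in CTR cells, 38.9 in CEBPA cells and 33.8 in P30 cells, against 6.71, 7.35 and 6.94 over all rows. HSP90AB1 and HSPA8, the constitutive cytosolic HSP90 and HSP70, were the highest members in each group, and in CTR they held 25.0% of the members' FPKM together. In CEBPA their order was reversed, with HSPA8 at 973 FPKM and HSP90AB1 at 744.

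Between CEBPA and CTR, single members differed in both directions while the median of the family was close to 0. A change here is the difference of log2(FPKM + 1), which understates the change of low genes, and a row was compared if either group of the pair exceeded 1 FPKM. Counts of members past 2-fold or 1.5-fold are on this scale. Of 62 members compared, 3 were at least 2-fold higher in CEBPA, where 14.0% of all 13673 rows were, and 2 were at least 2-fold lower, where 6.92% were. HSPA6, DNAJC13 and DNAJB9 were the members higher by this measure, and HSPB1 and DNAJC17 the members lower. At 1.5-fold, 10 members were higher and 6 lower, against 24.0% and 18.6% of all rows. In the set of 62, HSPA6, DNAJB7 and the lower of the DNAJC7 rows exceeded 1 FPKM in 1 of the 2 groups alone. The median change of the members was 0.06, beside -0.01 over all rows, and the spread of their changes (median absolute deviation times 1.48) was 0.58, beside 0.73.

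The FPKM of all rows summed to 659597 in CTR, 609378 in CEBPA and 668137 in P30. With FPKM rescaled to equal sums, an alternative chosen after the sums had been seen, the median change of all rows between CEBPA and CTR was 0.13, and 16 of 63 members were at least 1.5-fold higher and 5 lower, where 29.8% and 15.2% of all rows were. The count of members higher in CEBPA thus depended on the scaling.

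**Figure D1:**
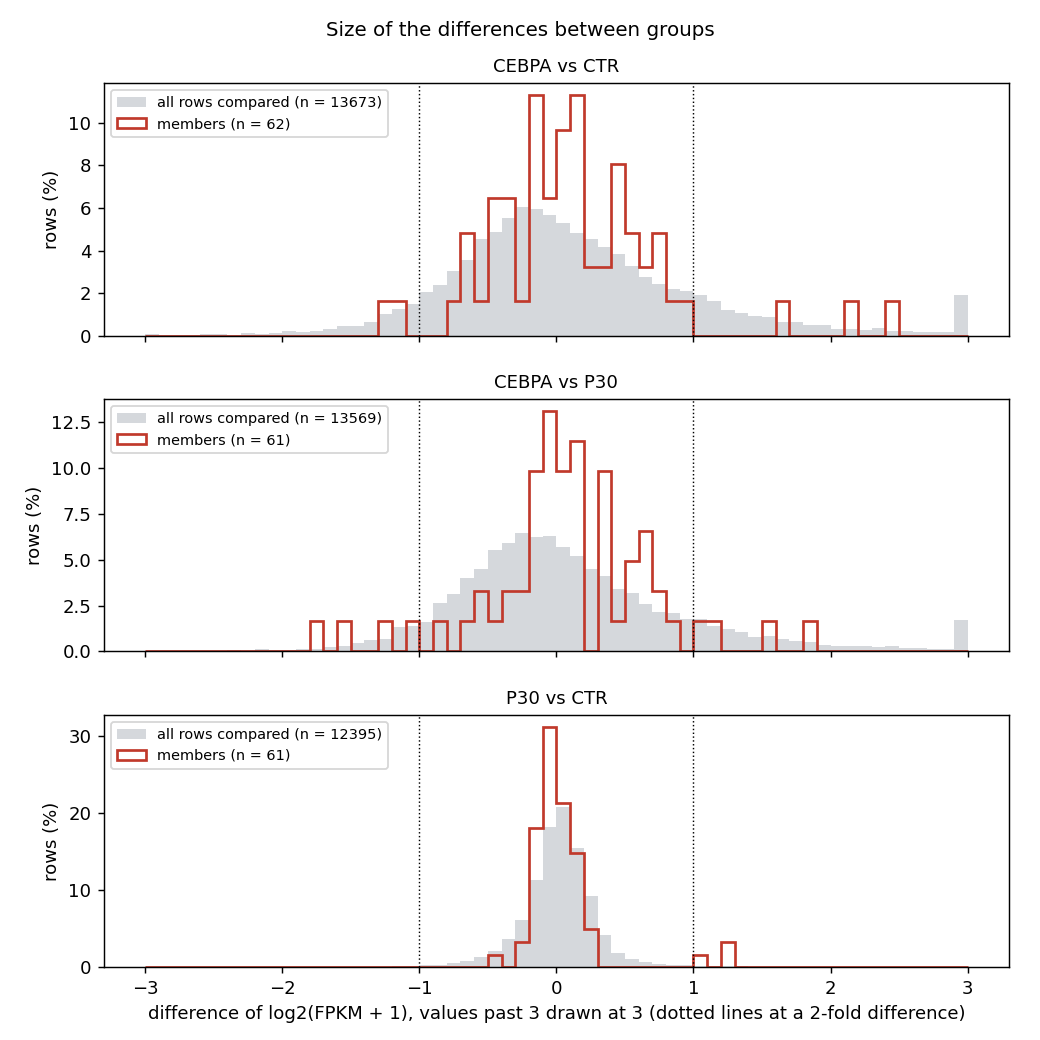
Distribution of the change (difference of log2(FPKM + 1)) of all rows compared (grey) and of the members (red outline), in percent of rows, for each pair of groups, with dotted lines at a 2-fold difference and values past 3 drawn at 3. The members spread less than all rows in the 3 comparisons, and between P30 and CTR 58 of 61 members lie between -0.5 and 0.5.

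The HSP90 genes differed from each other in direction. HSP90AB1, the constitutive cytosolic form, was at 974 FPKM in CTR cells, 744 in CEBPA cells and 979 in P30 cells. HSP90AA1, the stress-inducible cytosolic form, was at 390, 443 and 385 FPKM, so that the ratio of HSP90AB1 to HSP90AA1 was 2.50 in CTR, 1.68 in CEBPA and 2.54 in P30. Both windows shown above hold heat shock elements, and their genes were on opposite sides of CTR in CEBPA, by 0.18 for HSP90AA1 and -0.39 for HSP90AB1 on the log2 scale. HSP90B1 (GRP94), the HSP90 of the ER, which folds integrins and Toll-like receptors, was at 282, 511 and 274 FPKM. Its FPKM was 1.81-fold higher in CEBPA than in CTR, the widest difference of the 3 HSP90 genes. CTR and P30 were alike for each of them, with changes of -0.02, 0.01 and -0.04 for HSP90AA1, HSP90AB1 and HSP90B1.

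Among HSP70 proteins, the abundant housekeeping genes were nearly level across the groups. HSPA8 (HSC70), which also strips clathrin from vesicles, was at 855 FPKM in CTR cells, 973 in CEBPA cells and 941 in P30 cells. HSPA9 (mortalin), the HSP70 of mitochondria, was at 163, 177 and 168 FPKM. HSPA14, which works with DNAJC2 at the ribosome, was at 46.6, 45.6 and 50.4 FPKM. None of these genes differed by more than 0.19 on the log2 scale between any groups. HSPA5 (BiP), the HSP70 of the ER, was at 117 FPKM in CTR cells, 161 in CEBPA cells and 112 in P30 cells, a difference of 0.47 between CEBPA and CTR. HSPA13, also in the ER, went the other way, at 16.7, 11.7 and 18.0 FPKM. HSPA12B, a distant relative, was at 0.687, 0.1997 and 0.342 FPKM, too low to be compared.

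HSPA6, an HSP70 that is nearly silent in unstressed cells and strongly induced by heat, had the widest change of all members between CEBPA and CTR. It was at 0.462 FPKM in CTR cells, 7.22 in CEBPA cells and 2.59 in P30 cells, or 2.49 higher in CEBPA and 1.30 higher in P30 than in CTR on the log2 scale. HSPA7, listed next to it and annotated as an unprocessed pseudogene, was at 3.03 FPKM in CTR cells, 1.56 in CEBPA cells and 7.50 in P30 cells. HSPA6 thus exceeded HSPA7 in CEBPA alone, with ratios of HSPA6 to HSPA7 of 0.152 in CTR, 4.62 in CEBPA and 0.345 in P30. Over 1926 aligned bases their transcripts were 98.6% identical, with a longest identical run of 310 bases, so that reads could be split between the genes and both values are uncertain. Even the highest of them was far below HSPA8.

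HSPA6 lies on chromosome 1 of GRCh37, at chr1:161494330-161496684 on the + strand, 526 bases after the end of FCGR2A on the same strand, and HSPA7 starts 79396 bases further on at chr1:161576081. FCGR2A, an Fc receptor of phagocytes, was at 23.2 FPKM in CTR cells, 58.8 in CEBPA cells and 77.2 in P30 cells. FCRLA, the next row beyond HSPA7, was at 0.225, 65.8 and 1.85 FPKM. SDHC and DUSP12, further out, were at 148 and 31.9 FPKM in CTR, 148 and 25.3 in CEBPA and 154 and 31.2 in P30. FCRLB and ATF6, also beyond FCRLA, were at 1.55 and 15.4 FPKM in CTR, 3.32 and 23.1 in CEBPA and 1.34 and 16.9 in P30. Rows on either side of HSPA6 thus differed between groups. HSPA6, FCRLA and ATF6 shared one order of groups, while FCGR2A and HSPA7 each had another. Whether fragments of FCGR2A reach into HSPA6 was not tested.

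**Figure D2:**
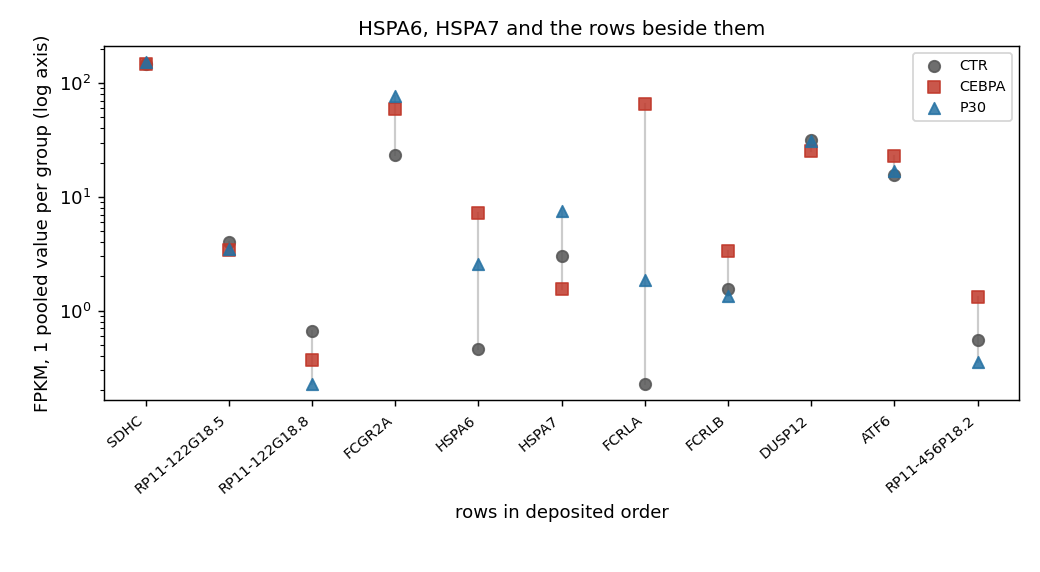
FPKM (log axis) of HSPA6, HSPA7 and the rows listed beside them, in deposited order along the horizontal axis and not to distance, with 1 pooled value per group (CTR grey circles, CEBPA red squares, P30 blue triangles). HSPA6 is highest in CEBPA and HSPA7 in P30, between FCGR2A, which is highest in P30, and FCRLA, which is highest in CEBPA.

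The HSP110 genes, which exchange nucleotides on HSP70, were all higher in CEBPA. HSPA4 was at 62.5 FPKM in CTR cells, 89.4 in CEBPA cells and 59.7 in P30 cells. HSPA4L was at 10.4, 18.2 and 11.3 FPKM, 1.75-fold higher in CEBPA than in CTR. HSPH1, the heat-inducible one, was at 35.4, 38.0 and 33.8 FPKM, a difference of 0.10 on the log2 scale. The median of the 3 changes between CEBPA and CTR was 0.51.

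TRiC holds its subunits in equal number, and the 7 with a row lay close together in level, with 2 of them higher in CEBPA. In CTR they ranged from 237 FPKM (CCT2) to 407 FPKM (CCT8), a ratio of highest to lowest of 1.72, and in P30 this ratio was 1.81. In CEBPA it was 2.10, from 188 FPKM (CCT2) to 395 FPKM (CCT3). CCT3 was at 282, 395 and 248 FPKM in CTR, CEBPA and P30, and CCT4 at 243, 346 and 235 FPKM. These were 1.40-fold and 1.42-fold higher in CEBPA than in CTR, and CCT3 went from the third highest subunit in CTR to the highest in CEBPA. CCT5 was at 386, 368 and 387 FPKM, CCT6A at 257, 234 and 252, CCT7 at 252, 226 and 233, and CCT8 at 407, 377 and 400. CCT2, the lowest subunit in each group, was at 237, 188 and 220 FPKM. The median change of the 7 subunits between CEBPA and CTR was -0.11, and 0.01 with FPKM rescaled to equal sums, so that its sign depended on the scaling. The chaperonin of mitochondria went together, with HSPD1 (HSP60) at 269, 307 and 281 FPKM and its lid HSPE1 (HSP10) at 270.0, 335 and 268 FPKM. HSPE1 over HSPD1 was 1.00 in CTR, 1.09 in CEBPA and 0.954 in P30.

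HSPB1 (HSP27), a small heat shock protein that holds unfolded proteins and binds actin, was at 218 FPKM in CTR cells, 97.9 in CEBPA cells and 207 in P30 cells. It was lower in CEBPA by 1.15 on the log2 scale, the widest difference in this direction among members outside the J proteins, while P30 was within 0.08 of CTR. HSPB11 was at 141, 129 and 139 FPKM. Its current symbol is IFT25, a subunit of the transport machinery of cilia, so that the name rule took in a gene of another function. HSPB3, HSPB6 and HSPB9 stayed under 1 FPKM in all 3 groups.

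**Figure D3:**
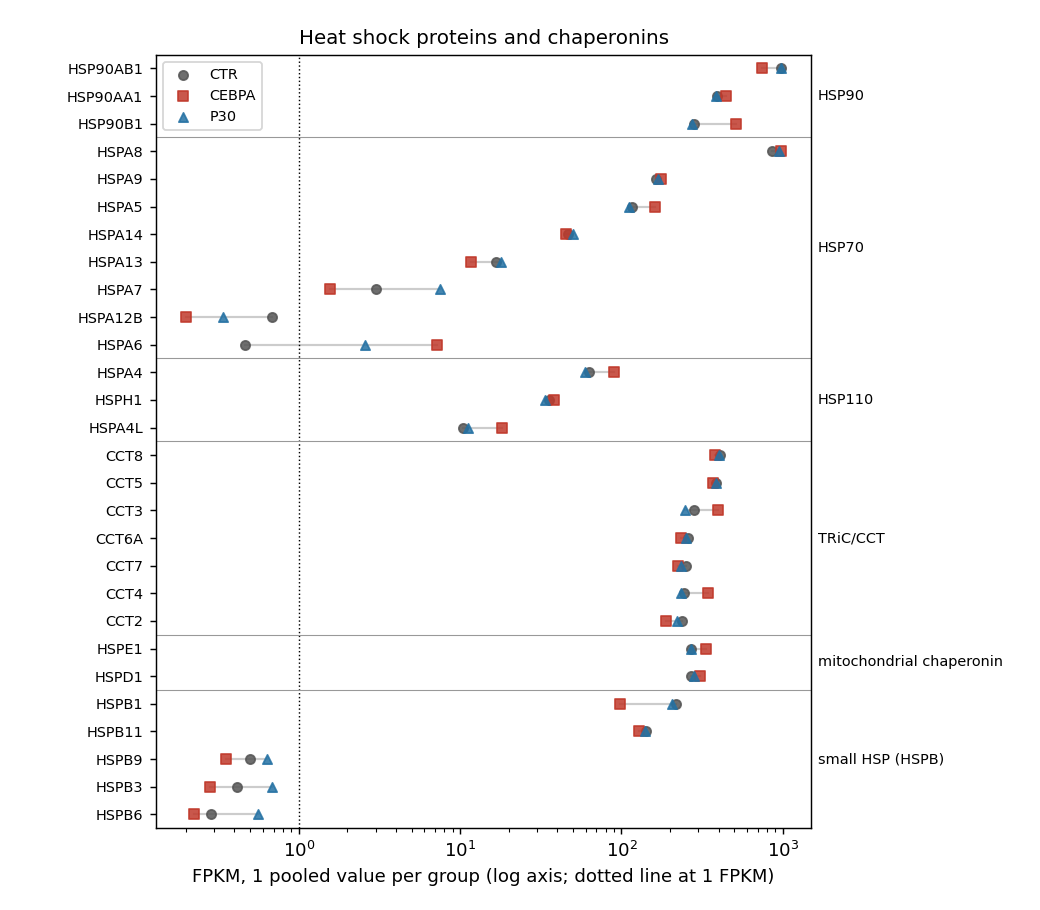
FPKM (log axis) of the members other than J proteins, grouped by class, with 1 pooled value per group (CTR grey circles, CEBPA red squares, P30 blue triangles) and a dotted line at 1 FPKM. Among genes over 1 FPKM in at least 1 group, CTR and P30 nearly coincide in most, with HSPA6 and HSPA7 apart. CEBPA lies to the right for HSP90B1, HSPA5, HSPA4, HSPA4L, CCT3 and CCT4 and to the left for HSPB1. Points of genes that stay left of the dotted line also lie apart, at values too low to be compared.

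J proteins made up 39 of the 67 rows, and 38 of them exceeded 1 FPKM in CEBPA or CTR. DNAJC13 (RME-8), which calls HSPA8 to endosomes, was at 6.09 FPKM in CTR cells, 29.9 in CEBPA cells and 7.55 in P30 cells, 4.90-fold higher in CEBPA than in CTR. DNAJB9 (ERdj4), an ER partner of HSPA5 in the removal of misfolded proteins, was at 9.33, 30.4 and 9.35 FPKM. Both were thus several times higher in CEBPA, with CTR and P30 close together. DNAJA1, a main cytosolic partner of HSPA8, was at 166 FPKM in CTR cells, 329 in CEBPA cells and 155 in P30 cells. Its ratio to HSPA8 was 0.195, 0.338 and 0.165. In CEBPA it was the highest J protein, ahead of DNAJC9 at 114 FPKM and DNAJB6 at 104 FPKM. DNAJA2 and DNAJA3, its relatives in the cytosol and in mitochondria, were each within 0.07 of CTR in CEBPA.

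Among the other J proteins at least 1.5-fold higher in CEBPA than in CTR, DNAJC21, which helps to finish the large ribosomal subunit, was at 36.0, 63.3 and 36.3 FPKM. DNAJC19, of the import motor of mitochondria, was at 48.2, 79.4 and 49.5 FPKM. DNAJB4 was at 15.4, 24.2 and 14.0 FPKM, and DNAJB14, of the ER membrane, at 7.70, 12.3 and 9.03 FPKM. P30 differed from CTR by at most 0.21 on the log2 scale in each of these. DNAJC10 (ERdj5), an ER reductase, was at 33.4, 48.6 and 29.6 FPKM, 1.5-fold higher in CEBPA only against P30.

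The J proteins lower in CEBPA had varied functions. DNAJC17, a nuclear protein tied to splicing, was at 13.3 FPKM in CTR cells, 4.92 in CEBPA cells and 12.9 in P30 cells. DNAJC9, which carries histones H3 and H4, was at 182, 114 and 174 FPKM, and was the highest J protein in CTR and P30. DNAJC4 was at 68.4, 41.3 and 74.5 FPKM. DNAJC12, a co-chaperone of the aromatic amino acid hydroxylases, was at 17.6, 10.9 and 12.6 FPKM, and differed most of the 4 between P30 and CTR, by -0.46 on the log2 scale. DNAJC17 overlaps GCHFR, C15orf62 and ZFYVE19 on the opposite strand and DNAJC4 overlaps NUDT22, and the strand setting of the counting is not given in the sources used here, so reads of overlapping genes might be mixed. In all, 42 of the 66 genes overlap another annotated gene, 34 of them on the opposite strand and 26 on the same strand, some on both. HSPA6 overlaps a gene on the same strand and HSPA7 a gene on the opposite strand.

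DNAJB5 was at 1.73 FPKM in CTR cells, 1.14 in CEBPA cells and 5.39 in P30 cells, and was, beside HSPA7, the one member at least 2-fold higher in P30 than in both other groups. DNAJC7 had 2 rows, at 88.9, 74.9 and 86.5 FPKM and at 1.14, 0.581 and 0.779 FPKM. In the remaining J proteins CEBPA and CTR differed by less than 1.5-fold on the scale of the calls, from -0.56 for DNAJC14 (123, 83.0 and 118 FPKM) to 0.49 for DNAJC5 (27.9, 39.7 and 30.2 FPKM) on the log2 scale.

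**Figure D4:**
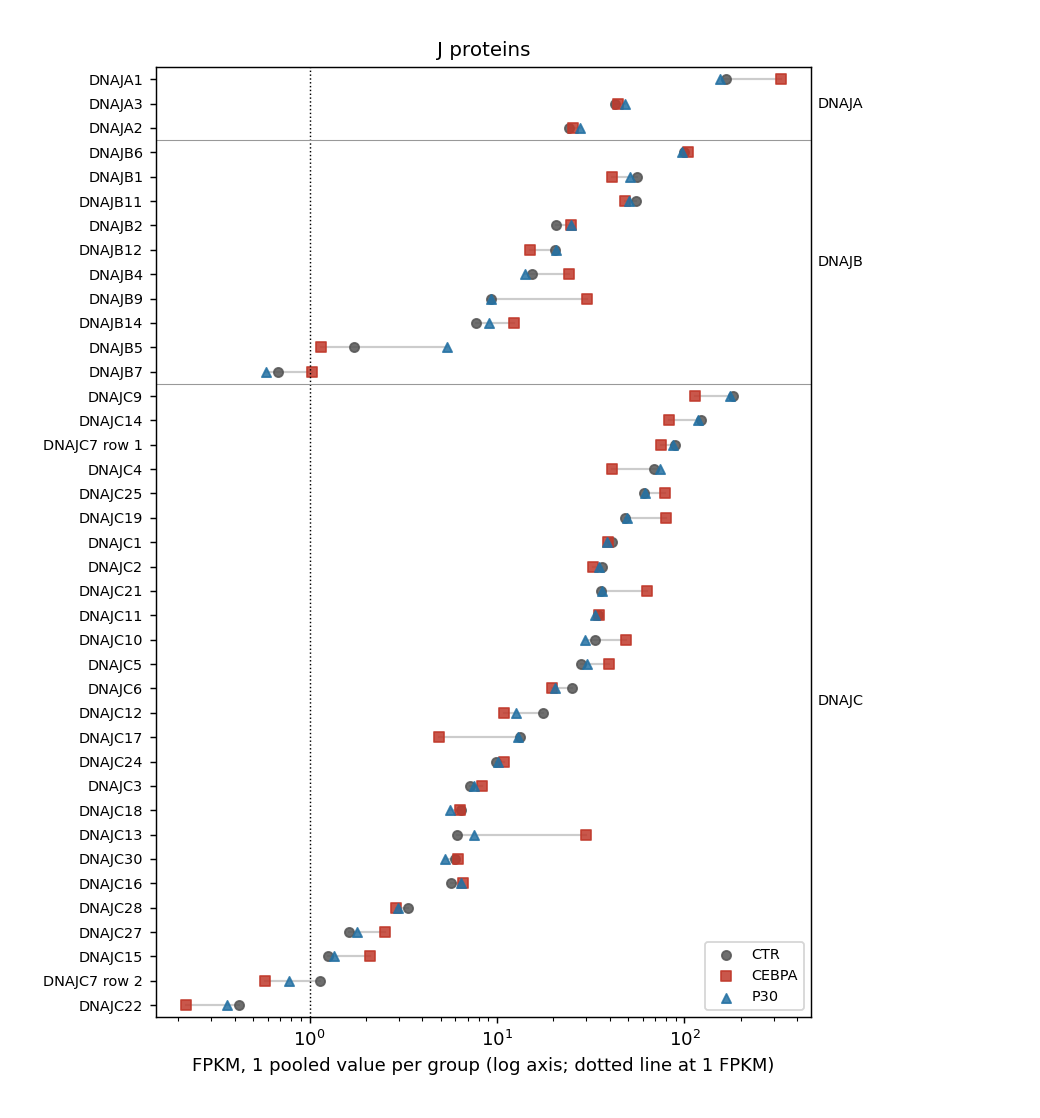
FPKM (log axis) of the 39 rows of J proteins by class, with 1 pooled value per group (CTR grey circles, CEBPA red squares, P30 blue triangles) and a dotted line at 1 FPKM. CEBPA lies well to the right for DNAJA1, DNAJB9 and DNAJC13 and to the left for DNAJC17, and DNAJB5 is highest in P30.

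Grouped by place in the cell, the members listed for the ER lumen had a higher summed level in CEBPA, carried by few of them. This list does not hold DNAJB14, of the ER membrane, and is not every member of the ER. Its 8 members (HSP90B1, HSPA5, HSPA13, DNAJB9, DNAJB11, DNAJC1, DNAJC3 and DNAJC10) summed to 561.6 FPKM in CTR cells, 859 in CEBPA cells and 539 in P30 cells. Between CEBPA and CTR 5 of them were above 0 and 3 below, with a median change of 0.33, and 2 were at least 1.5-fold higher and none lower, a share near the 24.0% of all rows that were higher. HSP90B1 alone made up most of the difference between the sums of CEBPA and CTR. The 3 below 0 were HSPA13, DNAJB11 (55.2, 48.1 and 50.4 FPKM) and DNAJC1 (41.3, 38.9 and 38.5 FPKM). All 8 members listed for mitochondria (HSPA9, HSPD1, HSPE1, DNAJA3, DNAJC11, DNAJC15, DNAJC19 and DNAJC30) were above 0. Their changes ran from 0.02 to 0.71 with a median of 0.15, and DNAJC19 alone passed 1.5-fold. The single direction holds for this list only, and other members that may be in mitochondria were not counted. Of all 13673 rows compared, 6771 were above 0 and 6902 below. Of the 10 genes listed as induced by heat, 8 had a row, and 6 of these were above 0 and 2 (HSPB1 and DNAJB1) below, with a median of 0.19. DNAJB1, the J protein that heat shock factor induces, was at 55.6, 41.0 and 51.1 FPKM. HSPA6 was thus the one heat-induced member past 2-fold higher in CEBPA and HSPB1 the one past 2-fold lower. Each was 12.5% of the 8, beside 14.0% and 6.92% of all rows. DNAJA1, also listed as induced by heat, was just short of 2-fold higher, at 0.98, and passed it at 1.09 with FPKM rescaled to equal sums.

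Genes of the pathway outside the name rule were taken from a list of 55 co-factors, 47 of which had a row. Between CEBPA and CTR, 8 were at least 1.5-fold higher (17.0%) and 6 lower (12.8%), against 24.0% and 18.6% of all rows, with a median change of -0.10. HSF1, the main heat shock factor, was at 38.5 FPKM in CTR cells, 30.3 in CEBPA cells and 38.1 in P30 cells, HSF2 at 19.1, 12.4 and 17.7 FPKM, and HSBP1, which binds HSF1, at 84.0, 78.1 and 87.6 FPKM. All 3 were lowest in CEBPA, HSBP1 by 0.10 on the log2 scale, less than the shift from rescaling. Among 13 HSP90 co-chaperones, 3 were at least 1.5-fold higher (23.1%) and 2 lower (15.4%), near the shares of all rows. CHORDC1 was at 32.5, 70.0 and 28.7 FPKM and SUGT1, with which it binds HSP90, at 32.3, 66.0 and 28.7 FPKM, so that both were more than 2-fold higher in CEBPA, and PPID was at 37.1, 56.6 and 39.1 FPKM. UNC45A (45.0, 27.0 and 34.9 FPKM) and PPP5C (54.7, 31.8 and 57.4 FPKM) were lower.

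Among 12 partners of HSP70, BAG2 was at 31.4, 49.7 and 27.9 FPKM and BAG1, a nucleotide exchange factor, at 49.1, 22.8 and 43.2 FPKM, and the other 10 were within 1.5-fold between CEBPA and CTR on the scale of the calls. BAG3, at 12.9, 19.6 and 12.4 FPKM, passed 1.5-fold against P30. Of 5 subunits of prefoldin, which hands actin and tubulin to TRiC, PFDN1 was higher in CEBPA, at 66.9, 113 and 67.2 FPKM, and PFDN5 lower, at 586, 358 and 563 FPKM. Members of one complex thus differed in direction here too. Of 14 folding factors of the ER, 3 were at least 1.5-fold higher (21.4%) and 1 lower (7.14%), against 24.0% and 18.6% of all rows. The lectin chaperone CANX was at 206, 384 and 294 FPKM, the oxidases ERO1L and ERO1LB at 10.1, 25.1 and 13.4 and at 7.01, 13.2 and 6.67 FPKM, and SELM at 27.1, 8.996 and 16.9 FPKM. CALR, the soluble relative of CANX, was lower in CEBPA, at 353, 277 and 336 FPKM, and was chosen for this contrast after its values were seen.

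**Figure D5:**
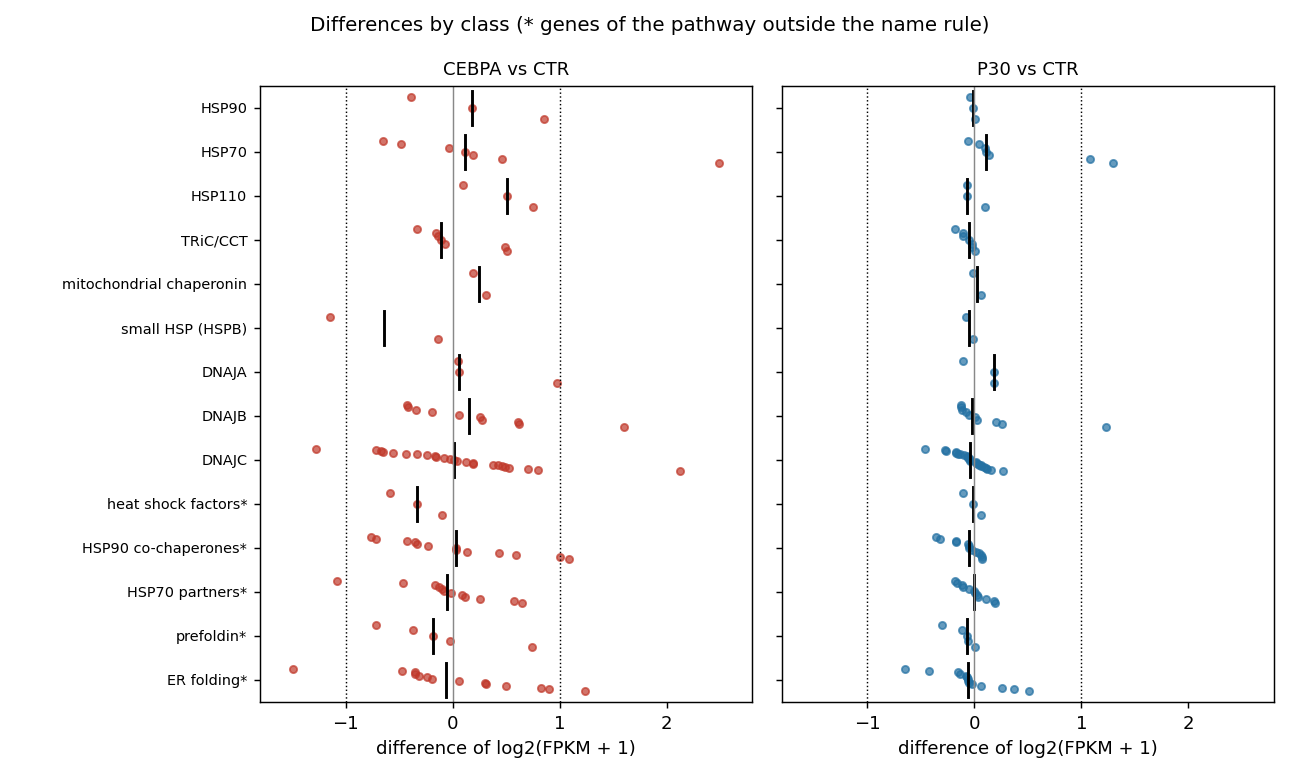
Difference of log2(FPKM + 1) of each row over 1 FPKM by class (points), with the class median (black bar), for CEBPA vs CTR (left) and P30 vs CTR (right), where an asterisk marks pathway genes outside the name rule and dotted lines a 2-fold difference. Points spread to both sides in most classes for CEBPA vs CTR and stay inside the dotted lines for P30 vs CTR apart from HSPA6, HSPA7 and DNAJB5.

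Between P30 and CTR the members were nearly level. Of 61 members compared, 3 were at least 2-fold higher in P30, where 1.02% of all 12395 rows were, and none lower, where 0.613% were. These 3 were HSPA6, HSPA7 and DNAJB5, none of them above 7.50 FPKM in any group, with changes of 1.30, 1.08 and 1.23. HSPA6 was compared because of its P30 value alone, since its CTR value was under 1 FPKM. At 1.5-fold the count was the same, 3 higher and 0 lower, where 2.69% and 2.63% of all rows were. The changes of 52 members lay within 0.2 of 0 and those of 32 within 0.1, with a median of -0.02 beside 0.02 over all rows and a spread of 0.12 beside 0.20.

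Between CEBPA and P30, which share the CEBPA libraries with the comparison to CTR, 4 of 61 members were at least 2-fold higher in CEBPA, where 13.1% of all 13569 rows were, and 4 lower, where 5.79% were. Those higher were DNAJC13, DNAJB9, HSPA6 and DNAJA1, and those lower HSPA7, DNAJB5, DNAJC17 and HSPB1. At 1.5-fold, 11 were higher and 7 lower, against 22.3% and 17.8% of all rows. This split became 13 and 5 when changes were centred on the median of all rows, where 23.4% and 16.2% of all rows were called. With FPKM rescaled to equal sums it was 14 and 5 of 63 members, against 28.3% and 13.5% of all rows, and at 2-fold 5 and 3. CCT3, at 395 against 248 FPKM, was the TRiC subunit that passed 1.5-fold here. The median change of the members was 0.05, beside -0.04 over all rows, and it was 0.18 beside 0.12 after rescaling.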

How the data were processed

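RNA-seq was made from 6 samples of K562 cells, 2 replicates each of CTR, CEBPA and P30. The authors aligned reads to hg19 (TopHat), assembled transcripts with Cufflinks on Gencode and deposited FPKM from Cuffdiff, which pool the replicates. Per the labels' processing notes, the tools were CASAVA 1.4, TopHat2 2.0 and Cuffdiff. Libraries were stranded. The replicates were sequenced in separate runs of different read length, and which replicate came from which run, the library normalization, the strand setting and how rows were selected for each table are not given in the sources used here. The files hold no read counts, so the fragments behind each value are not known from them and no interval is given.

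Rows were joined across the 3 tables by symbol and shared values. Changes were differences of log2(FPKM + 1) among rows over 1 FPKM in at least 1 group of a pair, and calls were made at 2-fold and 1.5-fold with no test. The computation was tested on simulated data with set changes in rows over 5 FPKM. This checks the arithmetic alone, and not the calls of low genes or those at 1.5-fold. Members, lists and pathway genes were chosen with earlier results of these data known. Some pathway genes and markers are not reported here and were left out of the counts and sums. Named were all members over 1 FPKM outside the J proteins, J proteins with a 1.5-fold change in any pair, pathway genes with a 1.5-fold change between CEBPA and CTR, heat shock factors and markers. Others are named where a group sentence needs them: HSPA12B, HSPB3, HSPB6, HSPB9, DNAJA2, DNAJA3, DNAJB1, DNAJB6, DNAJB11, DNAJC1, DNAJC5, DNAJC7, DNAJC14, BAG3 and CALR were chosen after their values were seen, as were the rows beside HSPA6. DNAJC3, DNAJC11, DNAJC15 and DNAJC30 are named as parts of a list by place in the cell. Positions are those of a Gencode annotation on GRCh37, of a later release than the authors used. Transcripts of HSPA6 and HSPA7 from this annotation were aligned to each other. Alternatives tried were a pseudocount of 0.1, centring of changes on the median of all rows, no filter or a filter at 5 FPKM, rows of the same symbol summed, genes listed in all 3 tables, shares without small RNAs and mitochondrial genes and, chosen after the data were seen, FPKM rescaled to equal sums. Software was Python 3.11.15, with numpy 2.4.6 and pandas 2.3.3 for the values and matplotlib 3.10.9 for the figures.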

Additional observations from a re-analysis of the deposited data

Results flagged for a closer look

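HSPA7 differed from CTR in opposite directions in the CEBPA and P30 lines. Its difference of log2(FPKM + 1) from CTR was -0.65 in CEBPA and 1.08 in P30. HSPA7 is a pseudogene, and its transcript was 98.6% identical to that of HSPA6 over 1926 aligned bases. Reads could therefore be split between these genes, and the values of both are uncertain. HSPA6 was higher than CTR in both lines, by 2.49 in CEBPA and 1.30 in P30. No value of HSPA7 exceeded 7.50 FPKM. The difference between the changes of HSPA7 was not tested, since each group has 1 pooled value, and both changes are taken against the same CTR value.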

How the results depend on the processing

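No paired analysis was possible because each group has 1 FPKM per gene with both replicates pooled, and for the same reason no replicate could be left out. Of 108 alternative values of the 18 counts, medians and shares, 107 stayed within the limit set for them, 1.5 times for counts and shares and 0.20 on the log2 scale for medians. The exception was the number of members at least 1.5-fold higher in CEBPA than in CTR, 16 in place of 10 with FPKM rescaled to equal sums, an alternative chosen after the data were seen, which moved the median change of all rows from -0.01 to 0.13 between CEBPA and CTR and from -0.04 to 0.12 between CEBPA and P30. The limit of 0.20 was larger than each median change of the members, so that staying within it says little about them. The median between CEBPA and CTR went from 0.06 to 0.17 after rescaling and counted as within the limit. Since all 67 rows were in all 3 tables, taking only genes listed in all 3 could not change the values of the members. Of 333 alternative values of single genes, 12 moved further than 0.20, and of 108 of class medians 0 did. No change of 1.5-fold or more turned its sign. Smaller changes did so in 12 genes and comparisons, none above 0.12 in size, after rescaling or centring (CCT5, CCT6A, CCT7, CCT8, HSPA14, HSPB11, DNAJB9, DNAJC21 and HSP90AB1). The 12 values that moved further were of low genes: with a pseudocount of 0.1 the changes between CEBPA and CTR, CEBPA and P30, and P30 and CTR were 3.70, 1.44 and 2.26 for HSPA6, -0.91, -2.19 and 1.28 for HSPA7 and -0.55, -2.14 and 1.59 for DNAJB5, and after rescaling those of HSPA6 were 2.92, 1.40 and 1.52. The rescaling turned the sign of the TRiC median, in CEBPA from -0.11 to 0.01 against CTR and from -0.07 to 0.06 against P30, of the DNAJA median between CEBPA and P30, from -0.12 to 0.01, and of the DNAJB median between P30 and CTR, from 0.0028 to -0.039 (-0.020 with centring). Without replicate values, the error of low values such as those of HSPA6, HSPA7 and DNAJB5 cannot be given.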

Other observations

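DNAJC5B, a relative of the vesicle J protein DNAJC5 that the name rule did not take in, was at 0.0129 FPKM in CTR cells, 12.4 in CEBPA cells and 0.0258 in P30 cells. It was picked after its values were seen. DNAJC5 was at 27.9, 39.7 and 30.2 FPKM, and DNAJC5G, the other relative, at 0.339, 0.0704 and 0.494 FPKM. DNAJC6 (auxilin), which brings HSPA8 to clathrin-coated vesicles, was at 25.0, 19.6 and 20.4 FPKM. Of the 5 J proteins of vesicles and endosomes listed, 4 exceeded 1 FPKM in CEBPA or CTR. DNAJC13 and DNAJC5B were more than 2-fold higher in CEBPA than in CTR, where 14.0% of all rows were at least 2-fold higher. DNAJC5B was compared because of its CEBPA value alone. With so few genes, and DNAJC5B picked by its values, nothing is read from this about vesicle J proteins as a group.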
